A study of Mus musculus with 4 samples.

Results

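The amino acid transporter genes described here are the protein-coding mouse genes whose symbols place them in the solute carrier (Slc) families Slc1, Slc3, Slc6, Slc7, Slc36, Slc38 and Slc43. The table held 58 of them among 22422 genes. Of these, 7 belonged to Slc1, 2 to Slc3, 18 to Slc6, 14 to Slc7, 4 to Slc36, 10 to Slc38 and 3 to Slc43. The gene Slc7a6os was taken in by its name only. It lies beside Slc7a6 and encodes no carrier, but it is kept in the counts (482 and 437 normalised reads in wild type, 498 and 553 in the other group; limma adjusted p = 0.399). Slc38a8, Slc6a16, Slc6a18, Slc6a3, Slc7a12 and Slc7a13, which the annotation also places in these families, had no row in the table and were not analysed.

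RNA of whole distal colon was sequenced from female mice 6 weeks old that had received 2% dextran sulfate sodium (DSS) for 5 days. DSS is a polysaccharide that injures the lining of the colon and causes colitis. The 2 groups were wild type and Elf4fl/fl-Villin-Cre, with 2 libraries each. In the latter, called the Cre group below, Cre recombinase under the villin promoter removes the floxed Elf4 gene from intestinal epithelium and leaves it in other cells. The strain label reads C57BL/6 for wild type and C57BL/8 for Elf4fl/fl-Villin-Cre, while the design text gives C57BL/6 for both, and the Elf4 and Cre alleles of the wild type are not described. All 4 libraries came from DSS-treated colon, so the comparison is between genotypes under DSS. The labels do not say that the 2 libraries of a group came from separate mice, so p-values measure only the spread between these libraries, which may be technical.

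Slc carriers move amino acids across the plasma membrane and across the membranes of lysosomes and synaptic vesicles. Epithelial cells take them up from the gut lumen with carriers driven by sodium, protons or exchange, and release them to the blood with other exchangers. Several Slc7 proteins are light chains that reach the membrane only when bound to a heavy chain of the Slc3 family. Slc6 carriers also include those for creatine, taurine, serotonin and other transmitters.

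Reads recovered from the values summed to 15885028 to 16425954 per library over the genes listed, and sequencing depth itself is not given. Elf4 itself stood at 1588 and 1938 normalised reads in wild type and at 897 and 758 in the Cre group, a fall of 2.13-fold (limma adjusted p = 0.0139). Transcripts that mark epithelium also fell in these libraries, and the part of that difference in the fall of Elf4 was not tested. Normalised reads are read counts divided by 1 factor per library, without gene length. Markers of colonic epithelium were abundant in all 4 libraries, while 6 measured markers of small intestine summed to 145 to 625 normalised reads. Log2 fold changes give the Cre group relative to wild type after 1 was added to each value, so the fold of scarce genes comes out smaller than it is. With any 1 library left out limma, the linear-model test used here, called 0 genes of the whole table, so losses on leaving out a library are given from edgeR's quasi-likelihood test.

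In the Cre group, several carriers of the epithelial surface were lower and the cystine/glutamate exchanger gene Slc7a11 was higher. Of 57 genes with a mean value of at least 1, limma found 6 higher and 8 lower at a false discovery rate of 0.05 (Benjamini-Hochberg, over all 22050 genes tested). These were 10.5% and 14.0% of the transporter genes, against 6.86% and 8.60% of all genes tested. The median log2 fold change was 0.21 over the 57 and 0.11 over all genes tested. The genes that rose were Slc7a11, Slc1a7, Slc43a3, Slc7a2, Slc7a6 and Slc36a4. Those that fell were Slc6a14, Slc7a9, Slc1a1, Slc36a1, Slc6a20a, Slc6a4, Slc6a8 and Slc7a7. The 14 were also called in the same direction by edgeR and by DESeq2. In all edgeR called 8 of 47 transporter genes higher and 8 lower, against 9.88% and 13.5% of all genes it tested. With libraries scaled to equal totals 15 transporter genes were higher and 7 lower, against 4114 (18.7%) and 1194 (5.42%) of all genes. That scaling moved the median of all genes up by 0.30 on the log2 scale.

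**Figure D1:**
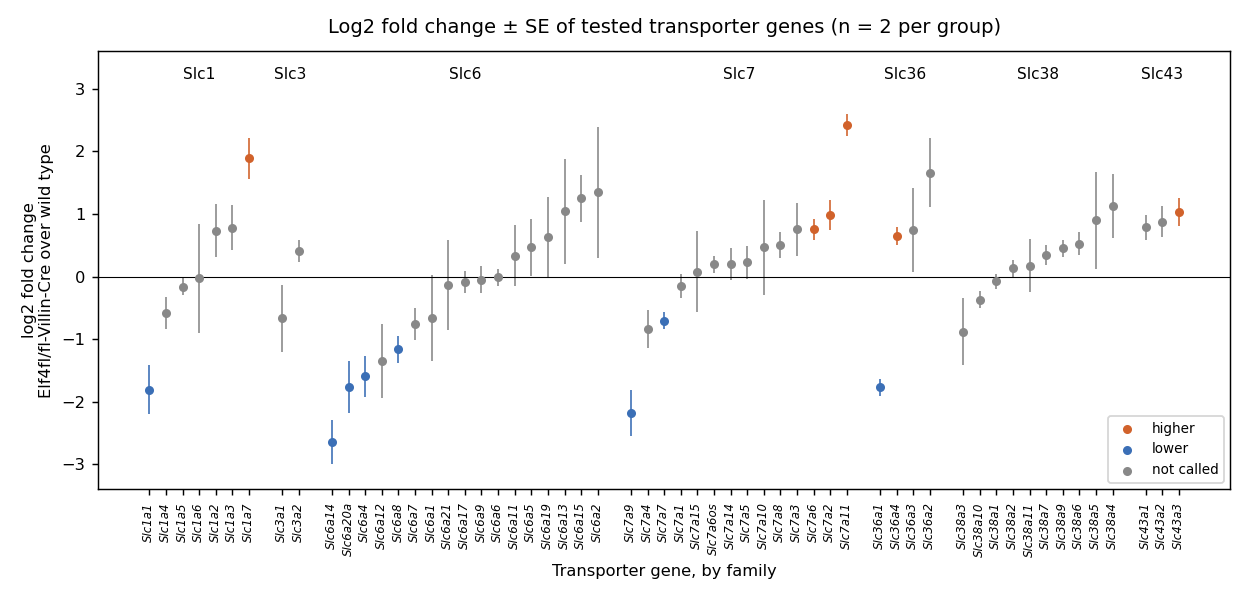
Log2 fold change with its standard error (y axis) for the 57 tested genes, grouped by family and ordered within it (x axis). Orange points passed the test as higher, blue points as lower and grey points did not pass; all 4 called Slc6 genes lie below 0 and no Slc38 gene is coloured.

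Cell type markers were chosen after their values were seen, so their counts only describe the genes listed. Those that mark epithelium were lower in the same Cre-group libraries. Of 11 epithelial junction and keratin genes, 10 fell and 0 rose, by limma as by edgeR, with a median log2 fold change of -1.30 and a range of -2.15 to -0.67. None was at 0, and their summed level was 248299 and 309333 normalised reads in wild type against 84168 and 100088 in the Cre group. Of 8 absorptive colonocyte markers 5 fell and 0 rose in limma (6 and 0 in edgeR), with a median of -1.92 and a range of -2.42 to -0.94. They summed to 94651 and 117585 normalised reads in wild type against 23629 and 37123, and none was at 0. Of 7 goblet cell markers 2 fell and 0 rose in limma (3 and 0 in edgeR), with a median of -0.87, none at 0, and sums of 935730 and 771072 normalised reads in wild type against 233666 and 416399. Over all genes tested limma called 8.60% lower and 6.86% higher, and edgeR 13.5% lower and 9.88% higher. In bulk tissue, fewer cells of a type and less RNA per cell cannot be told apart. The part of this difference in the carriers that fell was not tested.

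Slc6a14 had the largest fall of the set. It encodes a sodium- and chloride-coupled carrier of neutral and cationic amino acids on the luminal side of colonic epithelium. The gene (ENSMUSG00000031089.7, chromosome X, from 21714896 to 21742355 of mm10) had values of 3130 and 4438 normalised reads in wild type and at 415 and 849 in the Cre group. Both wild-type libraries lay above both others, and the means of 3784 ± 925 and 632 ± 306 (SD, n = 2 each) differed 5.99-fold. On the log2 scale Slc6a14 fell by 2.65 ± 0.35 (SE; limma adjusted p = 0.0115). edgeR called Slc6a14 whichever of the 4 libraries was left out (highest adjusted p = 0.0405).

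Slc36a1, a proton-coupled carrier of glycine, alanine and proline found on lysosomes and on the luminal membrane, fell with little spread. It stood at 3149 and 3570 normalised reads in wild type and at 944 and 1023 in the Cre group. The groups lay far apart and the replicates close together. The log2 fold change was -1.77 ± 0.14 (SE; limma adjusted p = 0.00671), and edgeR called it whichever library was left out (highest adjusted p = 0.0228). Slc36a1 lies on chromosome 11 (55204350 to 55236330) beside its relatives Slc36a2 and Slc36a3, which did not pass. Slc36a2 had 21.6 and 9.48 normalised reads against 69.2 and 32.6 in the Cre group (limma adjusted p = 0.0967), and Slc36a3 had 1.05 to 4.07 over the 4 libraries.

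Slc36a4, a proline and tryptophan carrier of the same family on chromosome 9, moved the other way. Its values were 338 and 372 normalised reads in wild type against 581 and 532 in the Cre group. It rose by 0.65 ± 0.14 (SE; limma adjusted p = 0.0336). The call was lost with quantile scaling (limma adjusted p = 0.0547). In edgeR it held without Cre-group replicate 2 and was lost without each other library (adjusted p = 0.0763 to 0.151).

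Cystine and dibasic amino acids enter epithelial cells through a pair of proteins, the light chain of Slc7a9 and the heavy chain of Slc3a1. Slc7a9 stood at 94.7 and 151 normalised reads in wild type and at 32.6 and 20.1 in the Cre group. Both wild-type libraries were the higher ones, and the log2 fold change was -2.18 ± 0.37 (SE; limma adjusted p = 0.018). In edgeR the call was lost without wild type replicate 2 (adjusted p = 0.064). Slc3a1 was scarce, at 14.4 and 14.8 against 5.70 and 13.4, and did not pass (limma adjusted p = 0.437). Exons of Prepl on the opposite strand cover 26.5% of the Slc3a1 exon length, and whether the counting used strand is not given, so reads of the pair may be mixed.

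Slc1a1 encodes a glutamate, aspartate and cysteine carrier of epithelia and neurons. It stood at 453 and 421 normalised reads in wild type and at 80.6 and 191 in the Cre group. The wild-type libraries lay close together and the others more than 2-fold apart. Slc1a1 fell by 1.80 ± 0.39 (SE; limma adjusted p = 0.0312), and the log2 fold change was -1.19 without Cre-group replicate 1 and -2.42 without replicate 2. edgeR lost the call without wild type replicate 1 or 2 (adjusted p = 0.0726 and 0.0823). An antisense gene, 4430402I18Rik, shares 31.9% of the Slc1a1 exon length and had 1.03 to 13.7 normalised reads.

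Slc6a20a, a carrier of proline and other imino acids, fell at a low level. Its 25.7 and 35.8 normalised reads in wild type compared with 7.33 and 9.20 in the Cre group (log2 fold change -1.77 ± 0.42, SE; limma adjusted p = 0.041). In edgeR the call was lost whichever of the 4 libraries was left out (adjusted p = 0.0543 to 0.146). Its neighbour and near copy Slc6a20b had 0, 3.16, 0 and 0.836 normalised reads in the 2 wild-type and the 2 Cre-group libraries. It was the 1 gene of the set left untested, with a mean value under 1. Slc6a19, the main neutral amino acid carrier of the small intestine, stood at 24.7 and 8.43 against 15.5 and 34.3, with overlapping groups.

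Of 17 Slc6 genes tested 4 (23.5%) fell and 0 rose in limma, against 8.60% lower and 6.86% higher over all genes. At the latter share a count of 0 among 17 is no result about the family. Unadjusted, 1 of them had p under 0.05 and a positive fold change. Both edgeR and DESeq2 called 4 lower and 0 higher. Slc6a8, the creatine carrier, had the highest level per length of the whole set. It stood at 8823 and 12288 normalised reads in wild type and at 4136 and 5241 in the Cre group. All wild-type values lay above the others, and Slc6a8 fell by 1.16 ± 0.22 (SE; limma adjusted p = 0.0225). The call was lost with quantile scaling (limma adjusted p = 0.0597) and, in edgeR, without wild type replicate 2 (adjusted p = 0.0646).

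Slc6a4, the serotonin carrier that clears serotonin released in the mucosa, also fell. It stood at 279 and 453 normalised reads in wild type and at 92.0 and 149 in the Cre group. The groups did not overlap, and the log2 fold change was -1.59 ± 0.32 (SE; limma adjusted p = 0.027). edgeR lost the call without wild type replicate 2 (adjusted p = 0.0823). Tph1, which makes serotonin in enteroendocrine cells, rose by 0.81 ± 0.15 in the same libraries (SE; limma adjusted p = 0.0233).

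The other Slc6 genes with a mean of at least 100 did not pass. Slc6a6, the taurine carrier, stood at 1225 and 1385 normalised reads in wild type and at 1336 and 1244 in the Cre group, so the groups overlapped (limma adjusted p = 0.952). Slc6a9, a glycine carrier, and Slc6a17, a synaptic vesicle carrier, had log2 fold changes of -0.05 and -0.09, also with overlapping groups. Of the scarcer members, Slc6a7, a brain proline carrier, stood at 74.1 and 83.2 against 48.0 and 44.3 (limma adjusted p = 0.0972). Slc6a15, a neuronal carrier of branched-chain amino acids, stood at 13.4 and 19.0 against 34.2 and 45.2 (limma adjusted p = 0.078).

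**Figure D2:**
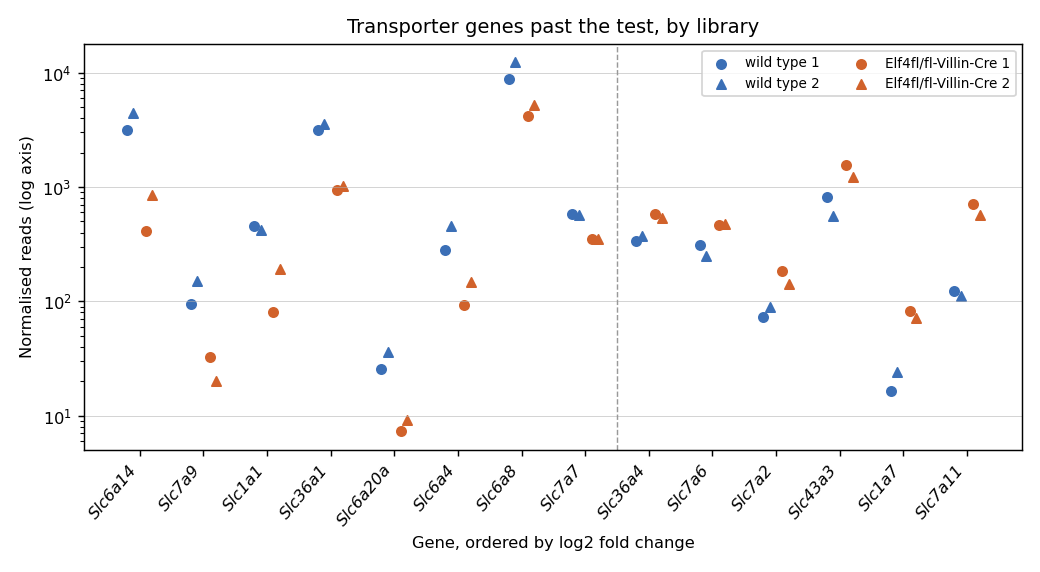
Normalised reads on a log axis (y) in each of the 4 libraries for the 14 genes past the test (x, ordered by log2 fold change; the dashed line separates lower from higher genes). Blue marks wild type and orange Elf4fl/fl-Villin-Cre, circles replicate 1 and triangles replicate 2. In each gene, chosen here by the test, the colours do not overlap.

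Slc7a11 had the largest rise of the set. It encodes the light chain of the exchanger that takes up cystine for glutathione synthesis and releases glutamate. The gene (ENSMUSG00000027737.10, chromosome 3, 49892526 to 50443614, minus strand) stood at 123 and 112 normalised reads in wild type and at 706 and 570 in the Cre group. The lowest Cre-group value was far above the highest wild-type one, and the means of 118 ± 8.32 and 638 ± 96.1 (SD, n = 2 each) differed 5.43-fold. On the log2 scale Slc7a11 rose by 2.42 ± 0.18 (SE; limma adjusted p = 0.00636), and edgeR called it whichever library was left out (highest adjusted p = 0.029).

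The Slc7a11 promoter is shown because stress-response factors of the C/EBP and ATF groups are known to act on it, and that of Slc7a7 because it holds the same letters and its gene fell. RefSeq windows of 250 bases before to 50 after a transcription start (GRCm38.p6) were found for 43 of the 58 genes, 64 windows in all. The C/EBP-ATF motif TGATGNAAN was searched on both strands and stands in capitals in the stretches before the start, written 5′ to 3′ along the gene. Slc7a11 is shown for the 100 bases before its start (chr3:50443614-50443713, minus strand) and Slc7a7 for the 150 bases before its outermost start (chr14:54417945-54418094, minus strand).
Slc7a11: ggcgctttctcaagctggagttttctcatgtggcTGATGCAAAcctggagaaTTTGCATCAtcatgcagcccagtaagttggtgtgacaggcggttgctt
Slc7a7: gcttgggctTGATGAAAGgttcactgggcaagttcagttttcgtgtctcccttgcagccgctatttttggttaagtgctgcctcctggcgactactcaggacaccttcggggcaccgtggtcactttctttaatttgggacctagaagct

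Slc7a11 held 2 matches on opposite strands, which begin at -66 and -48 from the start. Slc7a7 held 1 match at -141 and another, TGATGCAAC, at -1, which runs past the start and is not in the printed stretch. Of the member windows 7.81% (5 of 64) held the motif, in 4 genes that also included Slc1a4 and Slc6a21, against 3.95% of all 32851 windows. Windows of Slc7a7 overlap, and its TGATGCAAC site is counted in more than 1 of them. The antioxidant response element TGACNNNGC stood in 15.6% of the member windows and 12.4% of all. Of the 14 called genes 11 had a window, and of these Slc36a1, which fell, and Slc7a6, which rose, held a match to it. The Slc7a6 site is counted in 2 overlapping windows. The ETS site CCGGAAGT stood in 0 of the 64 member windows and 3.89% of all, which says only that these letters are not in these windows. No matches of different motifs shared bases.

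The heavy chain of Slc7a11 and of 5 other light chains is encoded by Slc3a2, which was abundant and did not pass. It stood at 1608 and 1157 normalised reads in wild type and at 1847 and 1777 in the Cre group (log2 fold change 0.41 ± 0.18, SE; limma adjusted p = 0.184). With libraries scaled to equal totals it was called higher, by 0.73 (limma adjusted p = 0.0382). Both Slc3 genes missed the test, and 0 of the 2 passed in edgeR, in DESeq2 or at an unadjusted limma p under 0.05. Over all genes limma called 6.86% higher and 8.60% lower, and at these shares 0 of 2 is no result about the family.

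The light chains that pair with Slc3a2 did not follow one direction. Slc7a7 and Slc7a6 encode closely related exchangers of cationic for neutral amino acids, and Slc7a7 is the form known from the basolateral side of intestinal and kidney epithelium. Slc7a7 stood at 581 and 571 normalised reads in wild type and at 354 and 353 in the Cre group. Slc7a6 stood at 310 and 249 in wild type and at 467 and 472 in the Cre group. Thus Slc7a7 was the higher of the pair in each wild-type library and Slc7a6 had more reads than Slc7a7 in each Cre-group library, before any allowance for length. Slc7a7 fell by 0.70 ± 0.13 and Slc7a6 rose by 0.76 ± 0.17 (SE; limma adjusted p = 0.0226 and 0.0324). Under equal totals Slc7a7 did not pass (limma adjusted p = 0.0868). edgeR lost Slc7a7 without wild type replicate 2 (adjusted p = 0.0573). It held Slc7a6 without wild type replicate 1 and lost it without each other library (adjusted p = 0.0565 to 0.100). Oxa1l on the opposite strand shares 232 of the 3315 exon bases of Slc7a7.

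The light chains of systems for large neutral amino acids did not pass. Slc7a5, which supplies leucine and other essential amino acids to growing cells, stood at 245 and 148 against 230 and 216 normalised reads, with overlapping groups (limma adjusted p = 0.599). Slc7a8, its relative in epithelia, stood at 261 and 187 against 332 and 298 (limma adjusted p = 0.157; higher under equal totals, adjusted p = 0.0412). Slc7a10 was scarce, at 6.17 and 4.21 against 15.5 and 3.34. Exons on the opposite strand also cover part of Slc7a10 (Lrp3, 17.9%), Slc7a4 (P2rx6, 13.3%) and Slc6a9 (Ccdc24, 27.8%).

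Among the cationic amino acid carriers that need no heavy chain, Slc7a2 rose. It encodes an arginine carrier that macrophages and other cells induce in inflammation. Slc7a2 stood at 73.0 and 89.6 normalised reads in wild type and at 185 and 140 in the Cre group, a log2 fold change of 0.99 ± 0.24 (SE; limma adjusted p = 0.0436). The call was lost with quantile scaling (limma adjusted p = 0.102). In edgeR it was lost with no filter (adjusted p = 0.0531), held without Cre-group replicate 2, and was lost without each other library (adjusted p = 0.0961 to 0.180). Slc7a1, the general arginine carrier, stood at 441 and 331 against 325 and 365, with overlapping groups. Slc7a4 stood at 96.7 and 127 against 49.7 and 76.1 (limma adjusted p = 0.115). Slc7a14, of the same branch of the family, stood at 134 and 120 against 118 and 181.

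All 10 monocyte and macrophage markers rose; the median of their log2 fold changes was 0.93. None was at 0, and they summed to 14304 and 12024 normalised reads in wild type and to 35158 and 23733 in the Cre group. Of 9 neutrophil markers 7 rose and 0 fell in limma as in edgeR. At an unadjusted limma p under 0.05, 0 were lower, while DESeq2 called 1 lower. Their log2 fold changes had a median of 3.28 and a range of -0.40 to 4.67. Their sums of 13779 and 14090 against 15495 and 17776 were mostly Ly6g, which did not pass, and Ngp was at 0 in 1 wild-type library. Fibroblast markers (3 of 7 higher, median 0.71) summed to 45265 and 36704 in wild type against 74271 and 78297, and endothelial markers (2 of 6, median 0.67) to 2591 and 1942 against 3833 and 3238. Erythrocyte markers (4 of 5, median 2.66) summed to 244 and 693 against 2419 and 2807, and B and plasma cell markers (1 of 7, median 0.71) to 23580 and 18429 against 41123 and 39056. Smooth muscle markers went the other way (1 of 6 lower, median -0.64), from 129496 and 99841 to 59273 and 88877. T and NK cell markers (median 0.12) and enteric neuron markers (median 0.47) had 0 of 8 and 0 of 7 called. These counts stand against 6.86% higher and 8.60% lower of all genes tested. None of these markers was at 0 in all libraries. The part of these cell types in the rises of Slc7a11, Slc7a2 and Slc43a3 was not tested.

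Glutamine carriers were among the most abundant of the set and did not pass. Slc1a5, a sodium-dependent glutamine exchanger, stood at 1904 and 2075 normalised reads in wild type and at 1911 and 1652 in the Cre group (limma adjusted p = 0.469). The groups overlapped, and the direction turned from lower to higher under equal totals and under quantile scaling. Slc1a4, a carrier of alanine, serine and cysteine, stood at 251 and 166 against 122 and 152 (limma adjusted p = 0.182).

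On the deposited scale the Slc38 family, sodium-coupled carriers of glutamine and other neutral amino acids, had nearly the same summed level in all 4 libraries. Its 10 genes summed to 7152 and 7164 normalised reads in wild type and to 7215 and 7223 in the Cre group. That scale gives the libraries unlike totals, 16600352 and 16738225 in wild type against 13049846 and 13733958 in the Cre group. The sum also hides opposite directions, with log2 fold changes from -0.88 to 1.13. In limma 0 of the 10 passed, against 6.86% higher and 8.60% lower over all genes. At these shares a count of 0 among 10 is no result about the family. Unadjusted, 3 had p under 0.05, of which 2 were higher, and edgeR and DESeq2 also called 0. Under equal totals 3 were higher. Slc38a2, which starved cells induce, had the most reads of the family, at 3035 and 3304 against 3434 and 3500 (limma adjusted p = 0.535). Slc38a1 stood at 1310 and 1319 against 1200 and 1293, a log2 fold change of -0.08 that turned positive under equal totals and under quantile scaling.

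Slc38a9 encodes a lysosomal arginine sensor of the growth kinase mTORC1 and had values of 293 and 292 normalised reads against 406 and 395. The replicates were close and the groups apart, but the adjusted p was 0.0825 in limma. Slc38a10 stood at 2054 and 1770 against 1493 and 1462 (limma adjusted p = 0.123). Slc38a6 and Slc38a7 had log2 fold changes of 0.53 and 0.34 (limma adjusted p = 0.114 and 0.206). The 3 genes higher under equal totals were Slc38a6, Slc38a7 and Slc38a9. The other members, Slc38a3, Slc38a4, Slc38a5 and Slc38a11, were scarce.

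The 3 Slc43 genes had the highest family median, 0.88. Slc43a3, a carrier of purine bases rather than of amino acids, stood at 821 and 553 normalised reads in wild type and at 1545 and 1226 in the Cre group. It rose by 1.03 ± 0.22 (SE; limma adjusted p = 0.0324). In edgeR it was lost without wild type replicate 2 or Cre-group replicate 1 (adjusted p = 0.0934 and 0.0604). The carriers of branched-chain amino acids Slc43a1 and Slc43a2 missed the limma threshold narrowly. Slc43a1 stood at 79.2 and 80.1 against 133 and 144 (limma adjusted p = 0.0506, edgeR adjusted p = 0.0493), and Slc43a2 at 359 and 295 against 753 and 477 (limma adjusted p = 0.0626, edgeR adjusted p = 0.0487).

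In the Slc1 family 1 more gene passed. Slc1a7, a glutamate carrier known from retina, rose from 16.5 and 24.2 normalised reads to 82.3 and 71.9. The groups lay well apart, and the log2 fold change was 1.89 ± 0.33 (SE; limma adjusted p = 0.0188). edgeR lost it without wild type replicate 1 (adjusted p = 0.0513). The glial glutamate carrier genes Slc1a2 and Slc1a3 had 13.7 to 35.8 and 24.2 to 58.6 normalised reads over the 4 libraries, with log2 fold changes of 0.73 and 0.78 (limma adjusted p = 0.289 and 0.191). The enteric glia markers summed to 538 and 491 normalised reads in wild type and to 989 and 992 in the Cre group. Of these markers 2 of 5 were higher, against 6.86% of all genes tested, and none was at 0. Their part in the Slc1a2 and Slc1a3 values was not tested.

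Of the 58 genes 30 had a mean value of at least 100, and 11 of these were called, 5 higher and 6 lower. The shares over all genes tested, 6.86% higher and 8.60% lower, include scarce genes. A share over all genes of that level was not taken, so the 11 are no result about the set. Of those tested with a mean under 100, 24 were not called. Their means ran from 1.08 to 87.5 normalised reads, their log2 fold changes from -1.35 to 1.66 and their limma adjusted p from 0.078 to 0.987. A mean under 10 was found for 11 genes, and 1 read was worth 0.814 to 1.05 normalised reads. Slc38a5 was at 0 in 1 wild-type library and Slc6a20b in 1 library of each group.

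Levels can be compared between genes per length, as normalised reads per kilobase of annotated exon. On that scale wild-type colon was led by Slc6a8 at 2026, Slc6a14 at 1102 and Slc36a1 at 597, followed by Slc1a5 at 477, Slc3a2 at 392 and Slc38a2 at 359. In the Cre group Slc6a8 still led at 900, and Slc3a2 at 513, Slc1a5 at 427, Slc38a2 at 392 and Slc43a3 at 310 came next. Slc6a14 went from rank 2 to rank 7 and Slc36a1 from rank 3 to rank 8. Slc7a11 went from rank 33 to rank 19, and Slc7a9 from rank 20 to rank 35. Between Slc7a7 and Slc7a6 the order per length was 174 to 61.1 in wild type and 107 to 103 in the Cre group. With the length of the longest transcript instead, the same 10 genes led the set.

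**Figure D3:**
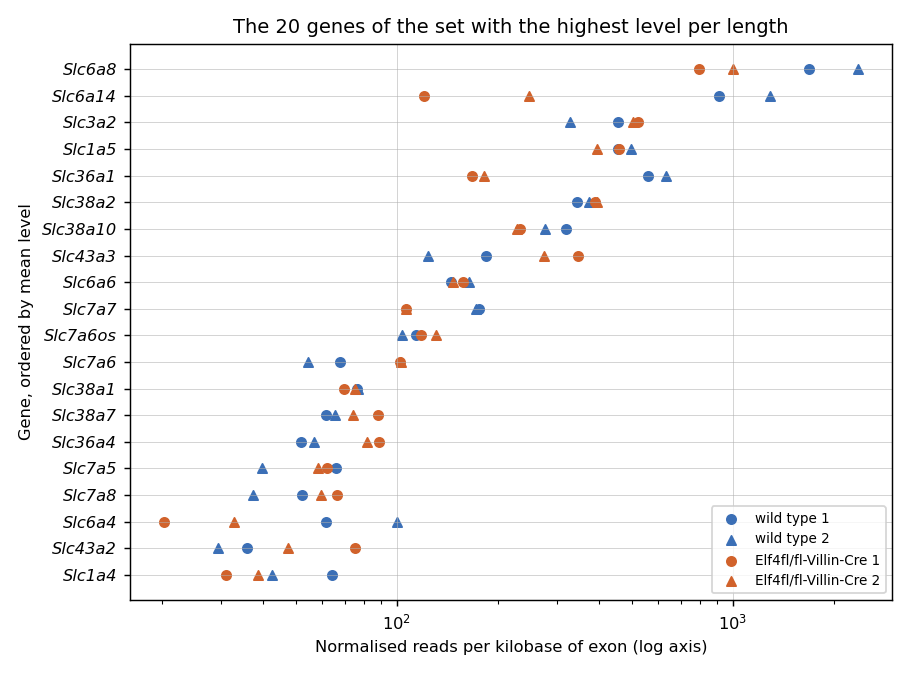
Normalised reads per kilobase of exon on a log axis (x) for the 20 genes with the highest mean over the 4 libraries (y, highest on top). Blue marks wild type and orange Elf4fl/fl-Villin-Cre; Slc6a14 and Slc36a1 have orange points far to the left of the blue ones, Slc43a3 and Slc7a6 to the right.

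Other genes that carry, sense or use amino acids were examined as 7 lists, whose counts are read against the 6.86% higher and 8.60% lower of all genes tested. Among 15 measured carriers of other families and partner proteins, 2 rose (13.3%) and 1 fell (6.67%), which is near those shares. Slc15a1, the peptide carrier of the luminal membrane, stood at 2986 and 3840 normalised reads in wild type and at 700 and 1302 in the Cre group (log2 fold change -1.83 ± 0.30, SE; limma adjusted p = 0.0171). Slc15a3, a lysosomal histidine and peptide carrier of immune cells, rose by 1.62. Cd44, which can bind and stabilise the Slc7a11 protein and is also a leukocyte and epithelial receptor, rose by 1.73 (limma adjusted p = 0.0305 and 0.0072).

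Of 16 arginine and polyamine genes 3 rose (18.8%, against 6.86% of all genes) and 0 fell in limma. edgeR called 4 higher and 1 lower, and 1 was lower at an unadjusted limma p under 0.05. Arg2, a mitochondrial arginase, went from 23.7 and 24.2 normalised reads to 244 and 320. It rose by 3.49 ± 0.24 (SE; limma adjusted p = 0.00636). The cytosolic arginase gene Arg1 rose by 1.92 and the spermine oxidase gene Smox by 0.77 (limma adjusted p = 0.0243 and 0.023). Under equal totals 11 of the 16 (68.8%) were higher, against 18.7% of all genes.

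Of 29 measured genes that amino acid shortage induces through ATF4, 2 rose and 2 fell (6.90% each), with a median of 0.06. Over all genes tested 6.86% were higher and 8.60% lower, so these counts are no result about the list. Cebpb, a transcription factor also induced by cytokines, rose by 1.85, and Atf5 by 0.70 (limma adjusted p = 0.0108 and 0.047). Cth, which makes cysteine, fell by 1.57, and Gars, a tRNA synthetase gene, fell by 0.67 (limma adjusted p = 0.0166 and 0.0241). Asns, the asparagine synthetase gene often read as a marker of this response, stood at 779 and 582 normalised reads in wild type and at 605 and 796 in the Cre group. Its groups overlapped (limma adjusted p = 0.907).

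Glutathione genes lie downstream of cystine uptake. Of 18 genes of glutamine, glutamate and glutathione metabolism, 1 rose (5.56%) and 2 fell (11.1%), near the shares of all genes. Gclc, the catalytic subunit of the first step of glutathione synthesis, rose by 0.55, and Gss, the enzyme of the second step, fell by 1.39 (limma adjusted p = 0.0367 and 0.022). The other gene that fell was Cth.

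Of 15 targets and regulators of the oxidative stress factor NRF2, 5 rose (33.3%) and 4 fell (26.7%), with a median of 0.14. The heme oxygenase gene Hmox1, high in macrophages, rose by 2.22, and the export pump gene Abcc1 by 0.82 (limma adjusted p = 0.00973 and 0.0217). Osgin1 and G6pdx, the latter a source of NADPH, fell by 0.99 and 0.79 (limma adjusted p = 0.0113 and 0.0152). Nqo1, a quinone reductase gene and common NRF2 marker, stood at 101 and 135 against 106 and 121 normalised reads, with overlapping groups (limma adjusted p = 0.923).

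Amino acid sensing genes upstream of mTORC1 had 1 of 28 higher and 0 lower in limma, against 2 and 1 in edgeR, and 6 and 3 at an unadjusted limma p under 0.05. The gene that rose was Fnip1, by 0.77 (limma adjusted p = 0.0254), and under equal totals 10 (35.7%) were higher, against 18.7% of all genes. Of 16 genes of branched-chain amino acid and tryptophan breakdown 1 rose, Tph1, and 1 fell, Mccc1, by 0.67 (limma adjusted p = 0.0412).

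**Figure D4:**
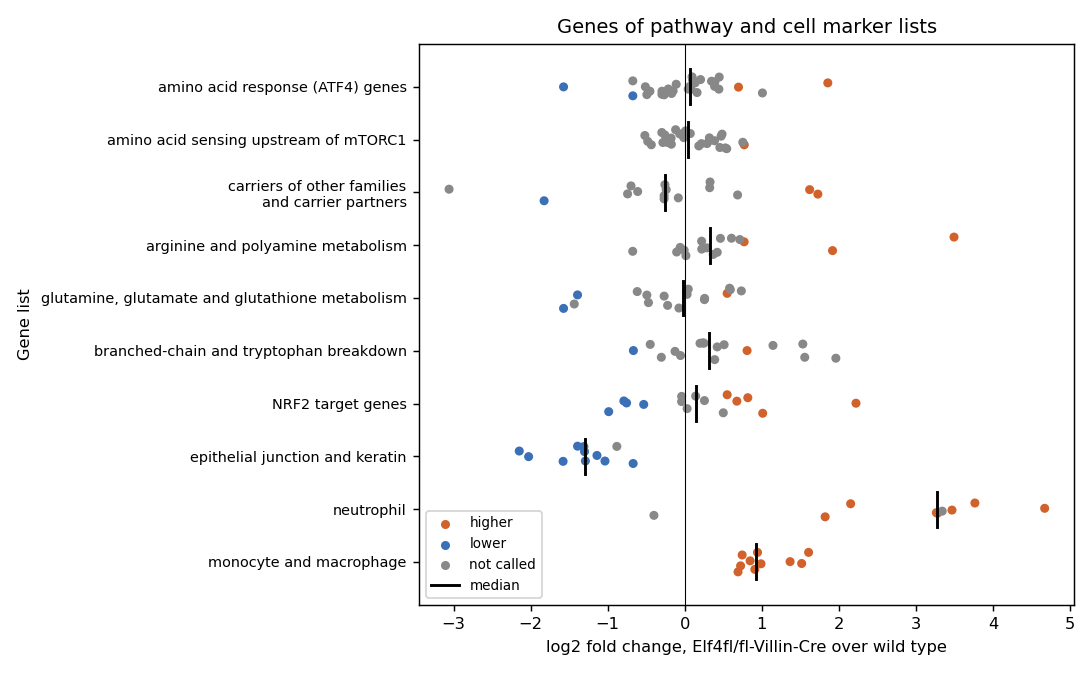
Log2 fold change (x axis) of each tested gene in the 7 pathway lists and in 3 cell marker lists (y axis). Orange and blue points passed the test as higher and lower, grey points did not, and black bars are medians; the pathway medians lie between -0.26 and 0.33, the epithelial one at -1.30 and the neutrophil one at 3.28.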

How the data were processed

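The deposited table gives 1 normalised signal per gene and library. Values in a library were multiples of 1 amount; dividing by it gave integers for 100% of them (tolerance 0.01), so the authors' signal is a read count over 1 factor per library. The submitters' processing notes name mm10. For the aligner, counter, annotation, strandedness and factors, the tool or setting is not given in the sources used here. GENCODE mouse release 21 matched 22376 of 22422 identifiers with versions ignored.

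limma (3.58.1, R 4.3.3) was run on log2(value + 1) with a variance trend and genotype as the only term over all 4 libraries, for genes with a mean of at least 1, with Benjamini-Hochberg adjustment over all tested genes at 0.05. The fit had 2 residual and 4.06 prior degrees of freedom. edgeR (4.0.16, TMM, filterByExpr) and DESeq2 (1.42.0) were run on recovered reads as alternatives, beside other pseudocounts, filters and scalings, a replicate block and leaving out each library; the fits were tested on simulated data. Genes named are those past limma, those with a mean above 100, the leader of each family per length, and the heavy and light chains; and per list up to 4 past the test. Slc1a2, Slc1a3, Slc6a7, Slc6a15, Slc6a19, Slc7a4, Slc36a2, Slc36a3, Asns, Nqo1, Nos2, Slc15a2, Ido1 and the marker genes were chosen after their values were seen. The members and lists were chosen with earlier results of these data known.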

Additional observations from a re-analysis of the deposited data

How the results depend on the processing

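The 14 called genes kept their direction in each of the 20 other settings. With libraries scaled to equal totals, 15 transporter genes were higher (6 as reported), the median over tested members was 0.52 (0.21 as reported), and 4114 genes of the table were higher and 1194 lower. Under equal totals 6 ATF4-response genes were higher and 1 lower, 10 mTORC1-sensing, 11 arginine, 3 glutamine and glutathione and 4 breakdown genes were higher, 0 breakdown genes were lower and 2 NRF2 targets were lower. edgeR gave 2 higher and 1 lower among mTORC1-sensing genes and 1 lower among arginine genes. The labels give both groups replicates 1 and 2, but nothing says that a number marks a shared litter or day. Deviations of replicate 1 from the group means correlated at 0.20 over 16881 genes. With the replicate block edgeR called 10 transporter genes higher, and 2456 genes higher and 2977 lower over the table; the cause was not tested. Leaving out 1 library gave 0 to 7 higher and 0 to 8 lower transporter genes, a member median of 0.079 to 0.27, and 0 to 1563 higher and 0 to 2191 lower genes. The 0 is from limma, which then has 1 residual degree of freedom. Directions of uncalled genes turned under equal totals for Slc1a5 (0.15), Slc6a6 (0.30), Slc6a9 (0.26), Slc6a17 (0.23), Slc7a1 (0.17) and Slc38a1 (0.24), and under quantile scaling for Slc1a5 (0.10), Slc6a6 (0.17) and Slc38a1 (0.11). On leaving out 1 library Slc6a17 ran from -0.31 to 0.092, Slc6a6 from -0.15 to 0.073, Slc6a9 from -0.33 to 0.20, Slc7a1 from -0.38 to 0.058, Slc7a5 from -0.16 to 0.59, Slc7a10 from -0.49 to 1.52 and Slc7a14 from -0.14 to 0.51. With 2 libraries a group, precision limits what can be seen for genes with few reads.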

Other observations

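Some genes of the lists differed widely between replicates. Slc15a2, a peptide carrier outside the Slc families counted here, stood at 115 and 184 normalised reads in wild type and at 1.63 and 117 in Elf4fl/fl-Villin-Cre colon. Its log2 fold change of -3.06 did not pass (limma adjusted p = 0.248) and the low value was that of 1 library. Ido1, the interferon-induced enzyme that opens tryptophan breakdown, stood at 3343 and 978 normalised reads in wild type against 12728 and 2221 with the Cre allele, and replicate 1 was the higher in both groups (limma adjusted p = 0.287). Nos2, which makes nitric oxide from arginine, stood at 4850 and 1804 in wild type and at 3679 and 2349 in Elf4fl/fl-Villin-Cre colon, with overlapping groups (limma adjusted p = 0.992).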
